A study of Mus musculus with 2 samples.

Results

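Of the 1900 miRNA probes on a Toray 3D-Gene array, 7 target the miR-15/16 seed family, read here in ID-8 ovarian tumours of mice from Cy5-labelled total RNA. The members are mmu-miR-15a-5p, mmu-miR-15b-5p, mmu-miR-16-5p, mmu-miR-195a-5p, mmu-miR-497a-5p, mmu-miR-322-5p and mmu-miR-503-5p, taken by probe name. The family was chosen for description with earlier results of these data known. The prefix mmu- stands for mouse and is left off in most places. One array came from C57BL/6 mice given bevacizumab and 1 array from C57BL/6 mice given control IgG. All mice received ID-8 LUC2 cells, a mouse ovarian cancer line, in the peritoneal cavity at 5 weeks of age, were dosed from day 14 at 5 mg/kg, 2 times a week, and were killed at day 42. Bevacizumab is an antibody made against human VEGF-A, and the arrays do not show whether it bound the VEGF-A of these mice. The submitters' texts name tumour RNA in one place and RNA from cells in another, and they do not say how many animals each RNA came from. Each group has 1 array, so the variation between animals is unknown, no test was made, and every difference below compares these 2 arrays only.

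The family silences its targets through a shared seed, the bases near the 5′ end of the miRNA that pair with the messenger RNA. Known targets include the G1 cyclins and their kinases, the kinases WEE1 and CHEK1 and the survival protein BCL2, so the family is best known as a brake on cell division. In human cells miR-15b and miR-16 also act on VEGF-A transcripts, and in human chronic lymphocytic leukaemia the miR-15a/16-1 locus is often deleted.

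The 7 mature sequences are shown because the seed defines the family and the bases after it tell its members apart. They are RefSeq sequences of build GRCm38.p6, with seed bases 2 to 8 in capitals, and all 7 names had a match.
miR-15a-5p: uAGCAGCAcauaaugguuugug
miR-15b-5p: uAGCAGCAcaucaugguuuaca
miR-16-5p: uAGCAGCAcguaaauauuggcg
miR-195a-5p: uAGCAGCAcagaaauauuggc
miR-497a-5p: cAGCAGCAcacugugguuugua
miR-322-5p: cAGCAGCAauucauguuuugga
miR-503-5p: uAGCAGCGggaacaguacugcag
The first 6 share one seed, and miR-503-5p has another last seed base. Compared without gaps from the 5′ end, miR-16-5p and miR-195a-5p are the most alike, with 19 of 21 positions identical, followed by miR-15a-5p and miR-15b-5p with 18 of 22. The least alike are miR-497a-5p and miR-503-5p, with 10 of 22. Probe sequences were not used here, and whether close relatives share signal was not tested.

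The members lie in 4 genomic clusters. Mir15a and Mir16-1 lie within 217 bases of chromosome 14 (chr14:61631880-61632096), inside the span of the long noncoding RNA gene Dleu2. Mir15b and Mir16-2 lie within 225 bases of chromosome 3 (chr3:69009772-69009996), inside the span of Smc4, which encodes a condensin subunit. Both loci give the same miR-16-5p, so its 1 probe cannot tell them apart. Mir497 and Mir195a lie within 419 bases of chromosome 11 (chr11:70234717-70235135). Mir503 and Mir322, the mouse counterpart of human miR-424, lie within 366 bases of chromosome X (chrX:53053984-53054349), inside the span of the long noncoding RNA gene C430049B03Rik.

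The arrays differed as a whole. Blank spots read 185 ± 4.03 intensity units on the bevacizumab array and 72.8 ± 0.828 on the control array (trimmed mean ± SD over spots). A probe counted as detected above the blank mean plus 2 SD, which lay 8.06 units above the blanks on the bevacizumab array and 1.66 on the control array. The bevacizumab array detected 940 of the 1900 miRNA probes, the control array 1416, and both arrays 917. The 5 bright control probes printed in 8 spots each were higher on the bevacizumab array by 2.21 to 2.36 on the log2 scale. Repeat spots of these probes put the SD of 1 log2 difference at 0.16, which covers spot-to-spot error at such brightness and nothing else. It was taken before normalization, so it does not give the error of dim probes or of normalized differences and serves below only as a rough scale. Levels of different probes are not set against one another, because probes bind and label unequally.

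All 7 members were detected on both arrays, and all 7 were dimmer on the bevacizumab array once the blank level was subtracted. In these unscaled units mmu-miR-15a-5p read 42.4 on the bevacizumab array and 495 on the control array. mmu-miR-15b-5p read 91.2 on the bevacizumab array and 183 on the control array. mmu-miR-16-5p read 265 on the bevacizumab array and 1789 on the control array. Each of these 3 was lower on the bevacizumab array, miR-15b-5p by the least. mmu-miR-195a-5p read 102 on the bevacizumab array and 937 on the control array. mmu-miR-497a-5p read 101 on the bevacizumab array and 564 on the control array. Both members of the chromosome 11 pair were lower on the bevacizumab array. mmu-miR-322-5p read 108 on the bevacizumab array and 818 on the control array. mmu-miR-503-5p read 14.6 on the bevacizumab array and 83.3 on the control array. The reading of miR-503-5p on the bevacizumab array stood 3.63 blank SDs above the blanks, under a stricter limit of 5 SD that the other 6 members passed on both arrays.

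**Figure D1:**
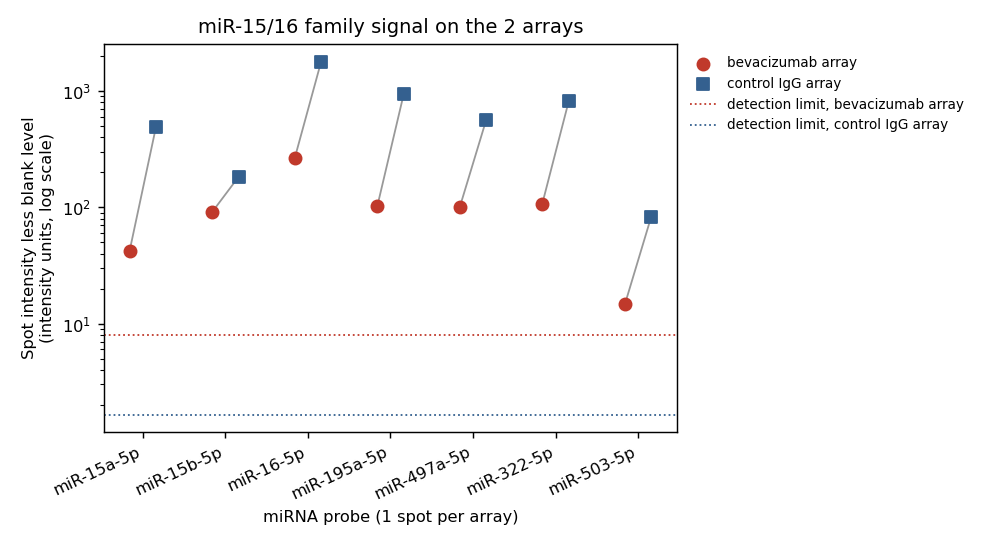
Spot intensity less the blank level (intensity units, log scale) of the 7 family probes, with the bevacizumab array as circles, the control IgG array as squares and dotted lines at each array's detection limit. Each point is 1 spot, and each circle lies below its square, by 11.7-fold for miR-15a-5p and 2.01-fold for miR-15b-5p.

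The unscaled signal was 11.7-fold lower on the bevacizumab array for miR-15a-5p, 9.20-fold for miR-195a-5p, 7.59-fold for miR-322-5p and 6.76-fold for miR-16-5p. It was 5.69-fold lower for miR-503-5p, 5.61-fold for miR-497a-5p and 2.01-fold for miR-15b-5p. All 7 were thus at least 2-fold lower in these units, as were 16.1% of the 917 miRNAs detected on both arrays. The median log2 difference, bevacizumab minus control, was -2.76 for the members and 0.82 for the 917, of which 672 were brighter on the bevacizumab array. The 7 members held 0.400% of the summed signal of detected miRNAs on the bevacizumab array and 1.65% on the control array. In bulk RNA, fewer cells of a type and less of a miRNA per cell cannot be told apart.

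The 2-fold shares depend on how the arrays are scaled. After normexp correction on the blank spots with an offset of 50 and quantile normalization, which sets each miRNA relative to the rest of its array, 6 of 7 members were at least 2-fold lower, against 11.6% of the 917, and no member was at least 2-fold higher, against 10.5% of the 917. The median was -2.25 for the members and 0.14 for the 917. The offset shrinks differences of dim probes. miR-195a-5p had the lowest difference (log2 -2.60), and 1.31% of the 917 lay below it. miR-15a-5p (-2.45), miR-322-5p (-2.40), miR-16-5p (-2.25) and miR-497a-5p (-1.89) followed, with 1.85% to 5.02% of the 917 below them. miR-503-5p, at -1.12, passed the 2-fold line by less than the repeat-spot SD, which comes from much brighter probes. miR-15b-5p, at -0.81, did not reach it and lay within 2 repeat-spot SDs of it, and 12.8% of the 917 lay below it.

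A correction by the local background around each spot turned the direction of 6 of the 7 members. On the control array the surroundings were brighter than the spot for miR-16-5p (2331 against a spot of 1862), miR-195a-5p (1198 against 1010), miR-322-5p (941 against 890) and miR-497a-5p (680.3 against 637). This held for 4 of 7 members and for 49 of all 1900 miRNA probes on that array. The spots of miR-15a-5p and miR-15b-5p exceeded their local background there by 7.05 and 2.46 units, and that of miR-503-5p by 65.2 units. On the bevacizumab array all 7 spots exceeded it, by up to 129 units. With normexp on the local background, miR-16-5p was at log2 1.46, miR-195a-5p at 1.14 and miR-322-5p at 1.02, at least 2-fold higher on the bevacizumab array, as were 5.23% of the 917. miR-497a-5p was at 0.69, miR-15a-5p at 0.49 and miR-15b-5p at 0.41. miR-503-5p was the member that stayed below 0 (-1.01), and 5.13% of the 917 were at least 2-fold lower. The blank level was used for all other values, so their direction rests on that choice of background.

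Under the other settings the members' counts stood against backgrounds that varied widely. All 7 members were at least 2-fold lower with an offset of 0 and with the blank mean subtracted before quantile normalization (17.0% of the 917 in each), and with cyclic loess (14.1%). All 7 were also past it in the authors' deposited value table (32.4%) and with scaling to the control probes (70.7%). With median scaling 6 of 7 were (12.0%). With the detection limit of 5 SD 5 of 6 were (13.9% of 617), and with no detection filter 6 of 7 (6.47% of 1900).

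**Figure D2:**
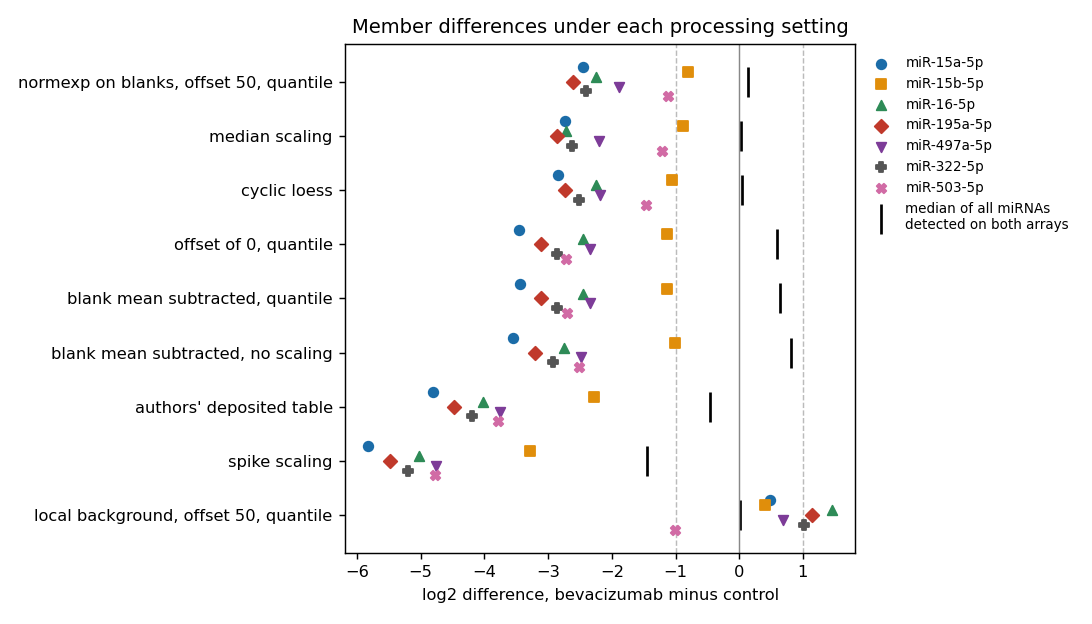
The log2 difference, bevacizumab minus control (horizontal axis), of each family member under 9 processing settings (rows), with a black tick at the median of all miRNAs detected on both arrays and dashed lines at 2-fold. All 7 members lie below 0 and left of the tick in the first 8 settings, and 6 of them lie right of 0 when the local background is used.

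On chromosome 14, miR-15a-5p and miR-16-5p had normalized differences that lay -0.20 apart (miR-15a-5p minus miR-16-5p), within the repeat-spot SD of 0.22 for a gap between 2 such differences. Unscaled, the gap was -0.79. It was -0.02 with median scaling, -0.59 with cyclic loess, -1.01 with an offset of 0 and -0.97 with the local background, so its size depends on the setting. On chromosome 3, miR-15b-5p minus miR-16-5p gave a gap of 1.44 after normalization and of 1.75 unscaled, above the repeat-spot SD in both. The paralogs miR-15a-5p and miR-15b-5p, with one seed and 18 of 22 positions identical, had a gap of -1.64 after normalization and of -2.54 unscaled. In both, miR-15a-5p was the lower. With the local background the gap was 0.08. In the authors' deposited value table miR-15a-5p had 34.9 on the bevacizumab array and 980.8 on the control array, and miR-15b-5p had 74.9 on the bevacizumab array and 362.4 on the control array.

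On chromosome 11, miR-195a-5p, which in mice takes part in the exit of heart muscle cells from division after birth, differed from its neighbour miR-497a-5p by -0.72 after normalization and by -0.71 unscaled. miR-195a-5p was the lower of the pair in both. The authors' deposited value table lists miR-195a-5p at 83.7 on the bevacizumab array and 1855.4 on the control array. It lists miR-497a-5p at 82.6 on the bevacizumab array and 1117.8 on the control array. These are 22.2-fold and 13.5-fold lower values, on a scale that multiplies each array by a factor of its own.

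On chromosome X, miR-322-5p and miR-503-5p, which restrain CDC25A and cyclin D1, were both lower. The gap between them, miR-322-5p minus miR-503-5p, was -1.28 after normalization, -0.42 unscaled and -0.14 with an offset of 0. With the local background it was 2.03, that of miR-195a-5p minus miR-497a-5p 0.45 and that of miR-15b-5p minus miR-16-5p -1.05, all with the sign turned. The other arm of the miR-322 hairpin, miR-322-3p, read 26.7 on the bevacizumab array and 73.6 on the control array, 2.75-fold lower unscaled and within 2-fold after normalization (log2 -0.78). miR-450a-5p, further along the same cluster, read 11.2 on the bevacizumab array and 63.2 on the control array, 5.65-fold lower unscaled and at -0.94 normalized. Its reading on the bevacizumab array passed the limit of 2 SD but not that of 5 SD. miR-351-5p lies with Mir322 in 1074 bases and inside the same noncoding gene span. It read 152 on the bevacizumab array and 78.8 on the control array. Its difference was 0.95 unscaled and 0.54 normalized, both within 2-fold, and it was below 0 in the authors' deposited table (-0.32), under scaling to the control probes (-1.33) and with the local background (-0.04). The other arm of that hairpin, miR-351-3p, read 19.1 on the bevacizumab array and 9.88 on the control array, with a difference of 0.95 unscaled, 0.14 normalized and -0.32 in the authors' deposited table. On the bevacizumab array miR-351-3p too was under the limit of 5 SD. The gap of miR-322-5p minus miR-351-5p was -3.87 on the unscaled log2 scale, which no common scaling factor changes. With the local background it was 1.06.
miR-322-3p: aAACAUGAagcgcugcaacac
miR-450a-5p: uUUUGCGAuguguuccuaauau
miR-351-5p: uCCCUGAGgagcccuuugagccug
miR-351-3p: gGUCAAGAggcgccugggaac
These 4, with bases 2 to 8 in capitals, are the cluster products other than the members that both arrays detected, and none has the family seed. The G and C content was 47.6% in miR-322-3p and 31.8% in miR-450a-5p, which were lower on the bevacizumab array, and 62.5% and 66.7% in the miR-351 arms, which were not lower unscaled.

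**Figure D3:**
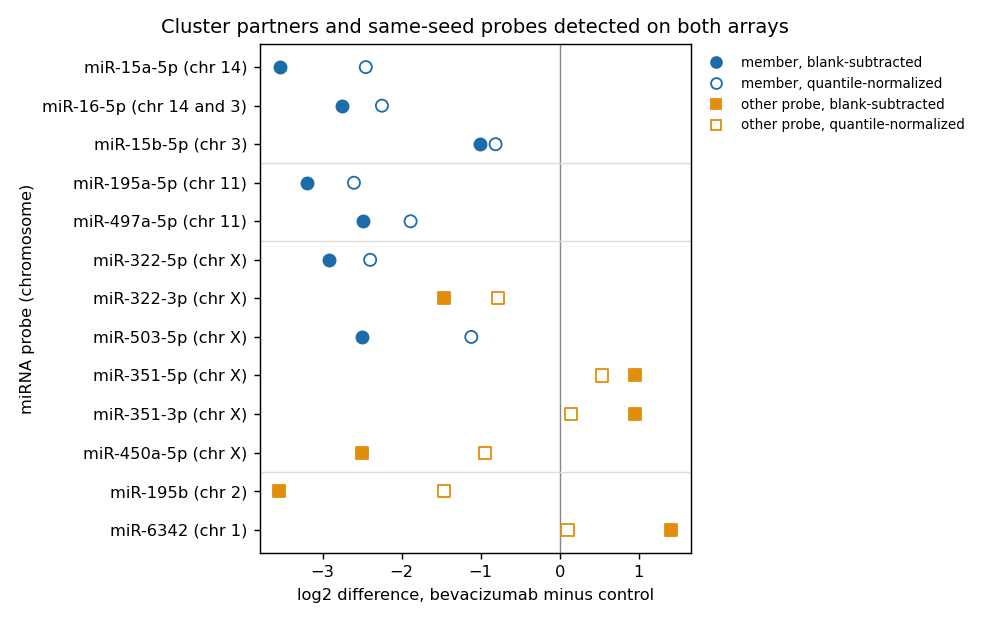
The log2 difference, bevacizumab minus control, of family members (circles), of the other products of the miR-322 cluster and of other probes with the family seed (squares), before scaling (filled) and after quantile normalization (open). Filled points lie at -3.54 for miR-15a-5p and -2.76 for miR-16-5p, and at 0.95 for both miR-351 arms.

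The opposite arms of the members' hairpins were mostly too dim to follow. Of 8 such probes, miR-322-3p was detected on both arrays, 6 on the control array alone and miR-497a-3p on neither. The 6 were miR-15a-3p, miR-15b-3p, miR-16-1-3p, miR-16-2-3p, miR-195a-3p and miR-503-3p, which on the control array stood 3.51 to 10.9 units over the blanks. Where a bound could be given, the largest was at least 1.07-fold lower on the bevacizumab array, for miR-15b-3p. Of the 9 other products of the chromosome X cluster, miR-351-5p, miR-351-3p and miR-450a-5p were detected on both arrays, and miR-542-5p, miR-542-3p, miR-450b-5p and miR-450b-3p on the control array alone. miR-450a-1-3p and miR-450a-2-3p were detected on neither.

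Among the 1614 of the 1900 probes whose names matched a RefSeq sequence, another 4 target miRNAs with the main family seed. The seeds of the unmatched probes were not read, so some of them may carry it too. miR-195b read 9.46 on the bevacizumab array and 111 on the control array, 11.7-fold lower unscaled and 2.76-fold lower after normalization (log2 -1.46). Its sequence, shown because it shares 18 of 21 positions with miR-195a-5p, comes from chromosome 2 (chr2:56785825-56785846).
miR-195b: uAGCAGCAcagaaauaguagaa
Its reading on the bevacizumab array passed the limit of 2 SD but not that of 5 SD, and with the local background its difference was -0.79. miR-6342 read 8.09 on the bevacizumab array and 3.05 on the control array, close to both detection limits, with a difference of 1.41 unscaled, 1.62 after subtracting the blank mean and quantile normalization, 1.01 without an offset, 0.10 with the offset of 50 and -0.87 under control-probe scaling. miR-6353 and miR-6419 were detected on neither array. Of these 4 probes, miR-195b was the one lower by at least 2-fold.

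The members share features with many other miRNAs that were lower on the bevacizumab array. These features were chosen after the values were seen, and their part in the family's difference was not tested. Of the other miRNAs detected on both arrays, 47.1% (64 of 136) with a miRBase accession no later than that of miR-497a-5p, the latest member, were at least 2-fold lower after normalization. The share was 36.8% (78 of 212) among those with a control signal between the lowest and the highest member, and 18.0% (51 of 283) among those with a G and C content in the members' range. Among the 36 that met all 3 conditions it was 83.3% (30 of 36), with a median of -1.61. The members' 6 of 7 is thus a share like that of other bright, early-catalogued miRNAs of similar base composition, and nothing particular to the family follows from it. The control signal also enters the difference itself, so choosing miRNAs by its range can shift these shares. No range was set on the bevacizumab signal.

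The mature members hold 40.9% to 56.5% G and C, with a median of 42.9%, against a median of 59.1% over the 784 miRNAs detected on both arrays whose names matched a RefSeq sequence. Across these 784, which share both arrays and are not replicates, G and C content and the normalized difference had a Spearman rho of 0.36 and a Pearson r of 0.45. With the unscaled difference the rho was 0.19. Of 28 miRNAs under 40% G and C, 16 passed the 2-fold line downward and 1 upward. Of 73 with 70% or more, 3 passed it downward and 26 upward. Within the family miR-15b-5p had the same content as miR-15a-5p and miR-322-5p (40.9%) but the smallest difference, and miR-503-5p had the highest content.

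**Figure D4:**
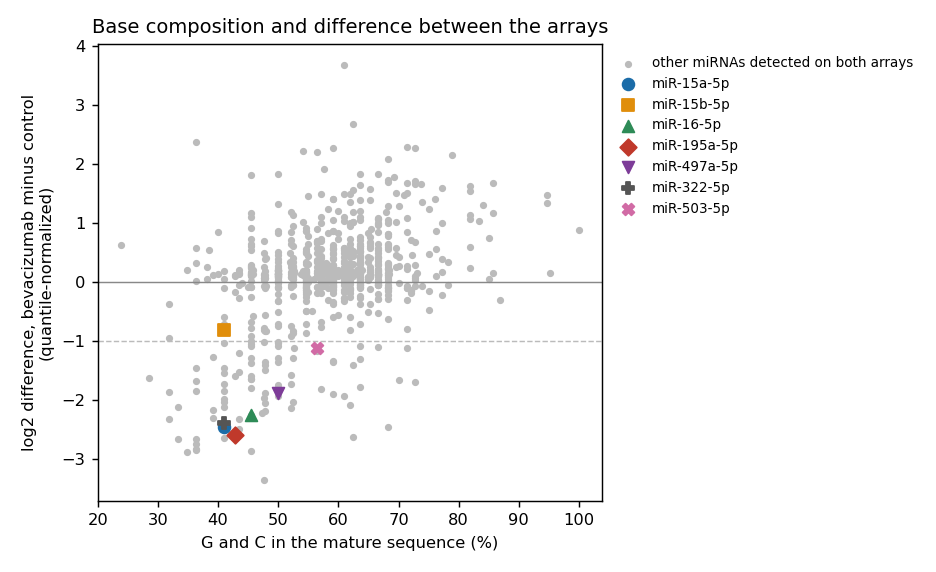
G and C content of the mature sequence (percent, horizontal axis) against the quantile-normalized log2 difference, bevacizumab minus control. Grey points are the 784 miRNAs detected on both arrays whose names matched a RefSeq sequence, and coloured points are the 7 family members. Unmatched miRNAs are not shown. Members lie between 40.9% and 56.5%, and of the 28 miRNAs under 40%, 16 lie below the dashed 2-fold line.

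Other miRNAs described as acting on VEGF-A or on entry into the cell cycle were read beside the family. Of 17 VEGF-A regulators outside it, 12 were detected on both arrays, and 10 of these passed the 2-fold line downward after normalization, 0 upward, against 11.6% downward and 10.5% upward of the 917. The median was -1.90. The lowest differences were those of miR-29b-3p (-2.88), a regulator of collagen transcripts, and the endothelial miR-126a-3p (-2.87). The highest were miR-361-5p (-0.78) and the lymphocyte miRNA miR-150-5p (0.33). miR-150-5p read 44.2 on the bevacizumab array and 21.1 on the control array, and was below 0 in the authors' deposited table (-0.20), under control-probe scaling (-1.21) and with the local background (-0.13). Of 13 miRNAs that act on the G1 phase, 8 were detected on both arrays, and 7 of these passed the line downward, 0 upward, against the same 11.6% and 10.5%. Among the 36 other miRNAs within the family members' range of accession, control signal and G and C content, the downward share was 83.3%. Those 36 were matched to the family and not to these lists, and list members were not taken out of them. Whether either count is particular to its list was not tested, and nothing particular is read from it. The median of the G1 list was -1.38. miR-26a-5p (-1.99) and the p53-induced miR-34a-5p (-1.93) had the lowest differences. let-7b-5p (-1.01, or -0.89 with cyclic loess) and miR-24-3p (-0.20) had the highest. With the local background the medians of these lists were 0.09 and 0.23.

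With the blank level as background, marker miRNAs of several cell types were lower beside the family, and their part in its difference was not tested. With the local background their directions split. Among markers detected on both arrays, the median log2 difference was then 0.10 for the endothelial and 0.69 for the striated muscle markers. It was -0.93 for the fibroblast and -0.39 for the leukocyte markers. The only such epithelial probe, miR-200b-3p, was at 0.32 and the only such erythroid probe, miR-451a, at -3.56. The endothelial miR-126a-3p was at 0.62 and miR-126a-5p at -0.41. Of the fibroblast markers, miR-214-3p was at 1.10, miR-199a-5p at -0.93 and miR-199b-5p at -1.84. Of the mural markers, miR-143-3p was then at 0.49 and miR-145a-5p at -2.48. The sums below are over whole lists and include readings under the detection limit, some of them below the blank level. Detection on the control array alone, named for some markers below, held for 499 of all 1900 miRNA probes. The summed signal of 2 mural markers, miR-143-3p and miR-145a-5p, was 270.4 on the bevacizumab array and 2757 on the control array, with both at least 2-fold lower. After normalization 11.6% of the 917 were lower by that size. Among the 36 other miRNAs within the family's range of accession, control signal and G and C content, 83.3% were. Markers were not taken out of those 36, and nothing particular to a cell type is read from the marker counts. The 2 endothelial probes, miR-126a-3p and miR-126a-5p, summed to 86.5 on the bevacizumab array and 997 on the control array, both lower by that size. Of 3 fibroblast markers, miR-199a-5p and miR-199b-5p were at least 2-fold lower and miR-214-3p was at 0.39 (-0.58 in the authors' deposited table), and the sums were 225 on the bevacizumab array and 845 on the control array. The 2 erythroid probes, miR-451a and miR-144-3p, summed to 149.9 on the bevacizumab array and 1699 on the control array, with miR-144-3p detected on the control array alone. Of 5 leukocyte markers, miR-223-3p and miR-150-5p were detected on both arrays and within 2-fold, and miR-142a-3p, miR-142a-5p and miR-155-5p on the control array alone. The sums were 70.7 on the bevacizumab array and 282 on the control array. The 3 striated muscle probes, miR-1a-3p, miR-133a-3p and miR-206-3p, summed to 230.4 on the bevacizumab array and 2089.6 on the control array. On the bevacizumab array miR-133a-3p read 221.8 and miR-1a-3p 10.5, the latter close to the detection limit of 8.06. miR-206-3p was detected on the control array alone. Of 6 epithelial markers all were detected on the control array and miR-200b-3p alone on the bevacizumab array, where it read 31.4, against 195.5 on the control array. The other 5, miR-200a-3p, miR-200c-3p, miR-141-3p, miR-429-3p and miR-205-5p, did not pass the detection limit on the bevacizumab array. The readings of miR-200c-3p, miR-429-3p and miR-205-5p there were below the blank level, so the sum of 21.5 on the bevacizumab array, against 553 on the control array, is less than the reading of miR-200b-3p alone.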

How the data were processed

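The scanner files hold, per the file headers, the intensity of every spot and of its local background, merged over scan gains, with no correction or normalization. The authors' deposited value table holds linear intensity too. Set against the scanner values it equals the spot less 185 (bevacizumab array) or 72.8 (control array), times a factor per array, with a largest departure of 0.0525 units. No spot was marked as failed, and no per-sample column was left aside.

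Blank levels are means of 896 blank spots, trimmed by 5% on each side. Normalized values used limma 3.58.1 in R 4.3.3 (normexp on the blank spots, offset 50, quantile normalization of 1900 probes). Differences are log2, bevacizumab minus control. Control-probe scaling used the 5 control probes over 100 units above the blanks on both arrays. Alternatives were other offsets, backgrounds, scalings and detection limits. Named were all members, their opposite arms, the chromosome X neighbours and, among names matched to a RefSeq sequence, probes with the family seed. From the VEGF-A and G1 lists, the 2 highest and 2 lowest differences were named. Cell type markers were named as whole lists, and miR-125a-5p and miR-125b-5p after their values were seen. Members and lists were chosen with earlier results of these data known. Likeness of pattern cannot be measured over 2 arrays.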

Additional observations from a re-analysis of the deposited data

How the results depend on the processing

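The median of the members stayed below 0 under every alternative run except the local background, where it was 0.69. It was -2.71 after subtracting the blank mean and quantile normalization, -2.72 at an offset of 0, -2.63 with median scaling, -2.76 with no scaling, -4.03 in the authors' deposited value table and -5.03 with control-probe scaling. With cyclic loess and with the detection limit of 5 SD or none it moved by less than the repeat-spot SD. At least 2-fold lower were 6 or 7 members under all of these except the limit of 5 SD, where miR-503-5p drops out and 5 of 6 were, and the local background, where 1 was. The local background turned miR-15a-5p (0.49), miR-16-5p (1.46), miR-195a-5p (1.14), miR-497a-5p (0.69) and miR-322-5p (1.02) to positive values, and miR-15b-5p to 0.41. The 2-fold call of miR-15b-5p, missed at -0.81 and with median scaling (-0.89), was made with an offset of 0 (-1.14), cyclic loess (-1.05), no scaling (2.01-fold lower) and in the deposited table (-2.27). The detection limit, higher on the bevacizumab array, keeps the opposite arms from being followed. No paired analysis was possible because each group has 1 array.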

Other observations

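miR-351-5p, a product of the miR-322 cluster that was not dimmer on the bevacizumab array before scaling, has no miR-15/16 seed but that of miR-125a-5p and miR-125b-5p, which come from chromosome 17 and from chromosomes 9 and 16. The pair was chosen after its values were seen.
miR-125a-5p: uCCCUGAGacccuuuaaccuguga
miR-125b-5p: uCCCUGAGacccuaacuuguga
After base 8 it shares 2 of 14 positions with miR-125b-5p. The unscaled log2 difference, bevacizumab minus control, was 0.95 for miR-351-5p and 0.90 for miR-125a-5p. After normalization it was 0.54 for miR-351-5p, 1.33 for miR-125a-5p and 1.84 for miR-125b-5p. The last 2 were thus at least 2-fold higher, as were 10.5% of the 917, and miR-351-5p was not. With the local background the values were -0.04, 0.32 and 1.34. miR-125b-5p read 5844 on the bevacizumab array and 2913 on the control array. All 3 were below 0 in the authors' deposited table, at -0.32, -0.37 and -0.26. Of the other probes with this seed among the matched names, miR-6367 was at 0.09 and miR-6394 at 0.31 unscaled.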
